A study of Mus musculus with 25 samples.

Results

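Microglia sorted from type 2 spontaneous glioblastomas were compared with microglia sorted from type 1 spontaneous glioblastomas in the mouse. The members are the 6 libraries whose table columns carry these labels, 3 of each tumour type, out of 21 libraries with a column and 25 labelled samples. The type 2 spontaneous, type 1 spontaneous, type 2 transplanted and type 1 transplanted microglia have 3 libraries each, and the monocyte-derived macrophages (MDM) of spontaneous tumours have 1 library of type 2 and 2 libraries of type 1. The 4 normal brain samples were not analysed here. The labels name the tumour type, the model and the sorted cell type, and give no strain, allele, Cre driver, age, sex or sort gate, so what makes a tumour type 1 or type 2 cannot be said from them. Whether each library stands for its own animal is not stated, so a p-value reflects library-to-library spread, part of which may be technical.

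Microglia are the resident macrophages of the brain. In glioblastoma, an aggressive tumour of glial origin, they share the tumour with macrophages that arrive from the blood as monocytes. Both kinds of cell can take up debris, display peptides to helper T cells on MHC class II molecules and answer interferons and prostaglandins, and the way they do so is known to vary with the tumour around them.

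The 6 libraries held 30787372 to 43014171 reads assigned to genes, recovered from the deposited values, and 16297 to 17873 detected genes. Levels are given as normalised read counts of libraries 1, 2 and 3 of a group in that order (1, 2 and 4 for type 1 transplanted microglia), and fold changes as log2 of type 2 over type 1 on the log2(normalised count + 1) scale with the standard error of the fit. A gene was called at an adjusted p under 0.05 from limma-trend, adjusted by Benjamini-Hochberg across 17216 tested genes. By Xist and the Y-linked genes, each group held 1 male-pattern library (type 2 library 2 and type 1 library 1) and 2 female-pattern libraries.

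The libraries carried the markers of their sort. Tmem119, a microglial surface protein, stood at 211928, 207893 and 166931 normalised counts in type 2 microglia, against 168752, 123024 and 197594 in type 1 microglia. The groups overlapped and the gene did not pass the test (0.28 ± 0.50, adjusted p = 0.998). Type 1 library 2 stood apart from the other 5 libraries. Its mean over 32 genes of monocyte-derived macrophages was 11.46 on the log2 scale, against 6.79 to 8.63 in the type 2 libraries and 8.91 and 7.69 in type 1 libraries 1 and 3. Chil3, a secreted chitinase-like protein of macrophages, reached 49273 normalised counts in this library, and P2ry12, an ADP receptor of resting microglia, was at its lowest there, at 12893. In sorted bulk samples, a change in the share of such cells and a change in RNA per cell cannot be told apart. Medians of gene groups are therefore given with and without this library.

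Few genes passed the test between the tumour types. The test called 10 of 17216 genes (0.0581%), 6 of them higher in type 2 microglia (0.0349%) and 4 lower (0.0232%). By the same test 1156 genes had an unadjusted p under 0.05 (6.71%), 496 higher (2.88%) and 660 lower (3.83%). With no difference at all, a share of about 0.05 of the genes would have such a p. The higher genes were the receptors Ptger3 and Gpr165, the class II gene H2-Ea, the interferon-induced Gbp10, the transcription factor gene Mycl and the sugar phosphate enzyme gene Gnpda1. The lower genes were the receptor Adgrg5, the lipid enzyme gene Gdpd3, the proton pump gene Atp6v0e2 and the transporter gene Slc29a4. These calls rested on the spread estimated over all 21 libraries. With the spread taken from the 6 compared libraries alone, 0 genes were called by limma-trend, with 675 genes at an unadjusted p under 0.05. With the 12 microglia libraries 2 genes were called. In all 8 pairs of a microglia and an MDM library with the same tumour type, model and number, both libraries had the same sex pattern, and the labels do not say whether a shared number marks a shared animal. With these pairs as a block (consensus correlation 0.14), an alternative added after seeing the data, the same 10 genes were called.

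**Figure D1:**
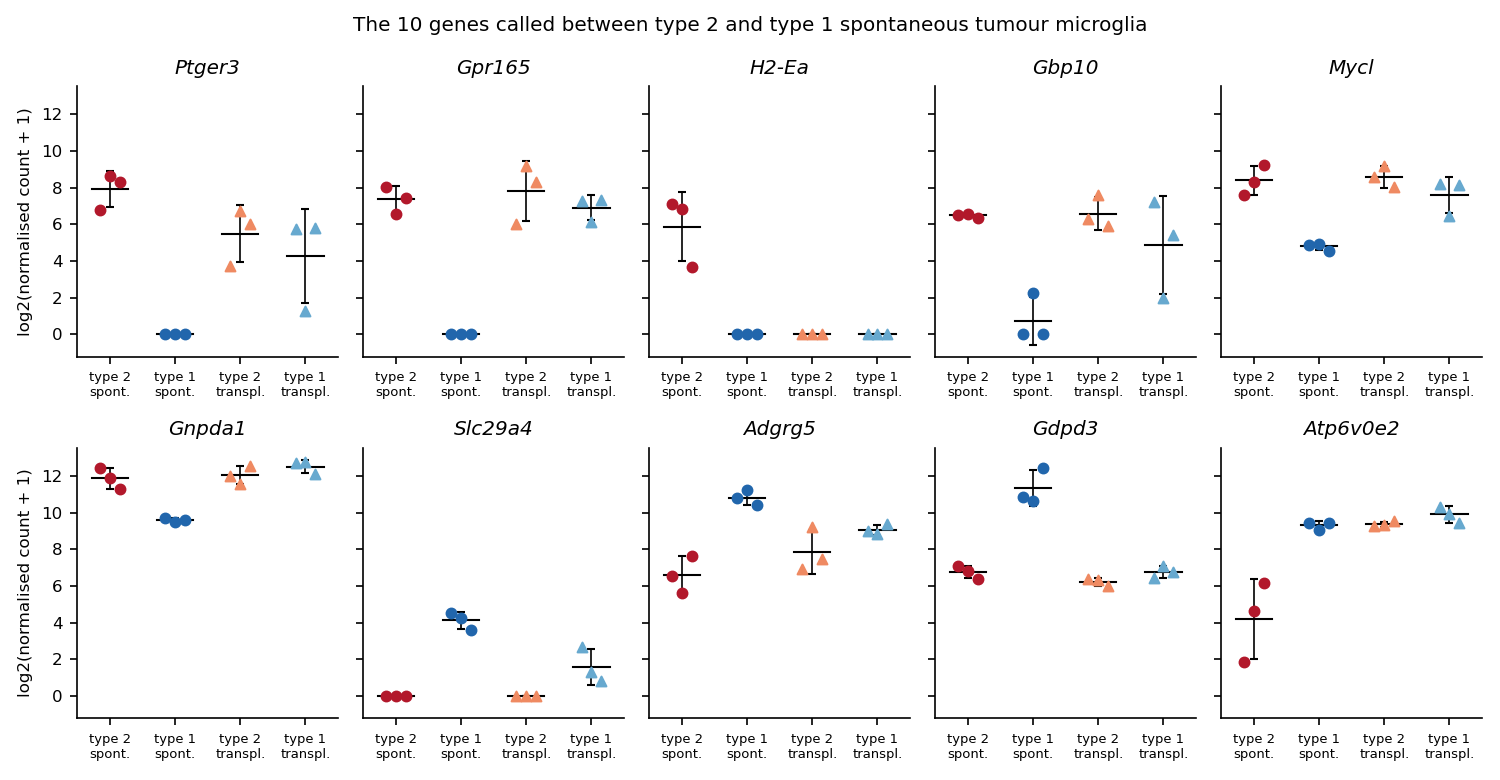
Levels of the 10 called genes as log2(normalised count + 1) in microglia of spontaneous and transplanted tumours. Each point is 1 library, circles are spontaneous and triangles transplanted tumours, and the bar and whiskers give mean and SD of 3 libraries. In spontaneous tumours the 3 type 2 libraries lie on 1 side of the 3 type 1 libraries for each of the 10 genes.

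**Figure D2:**
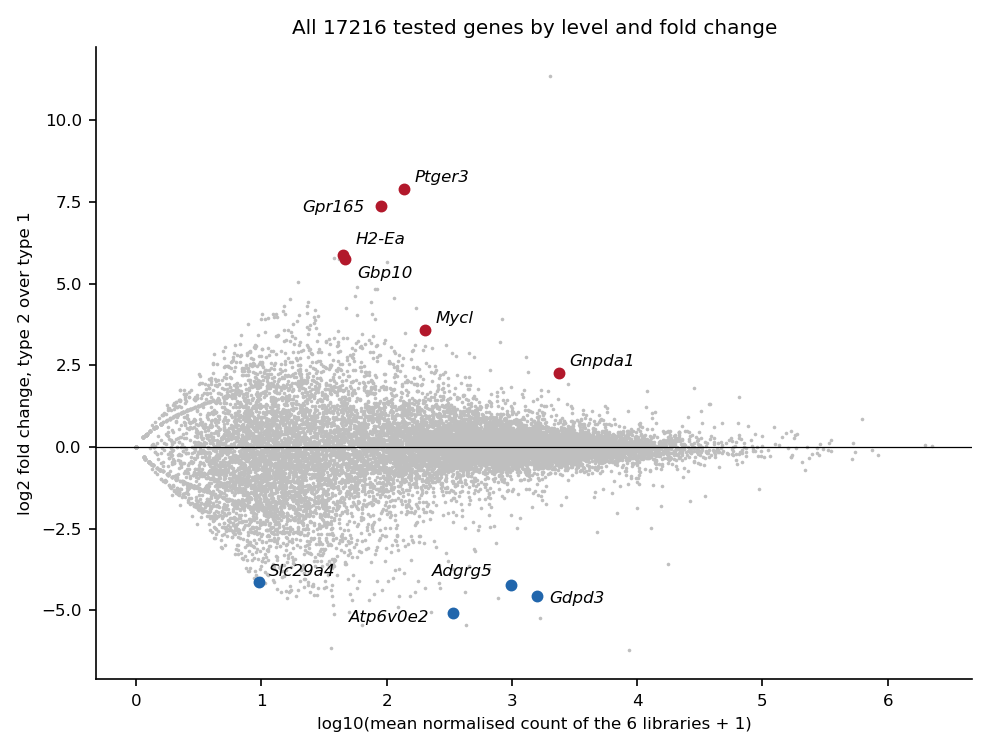
Mean level of the 6 libraries, as log10(normalised count + 1), against the log2 fold change of type 2 over type 1 spontaneous microglia for all 17216 tested genes. Coloured points are the 10 called genes, red where higher and blue where lower in type 2 microglia. The highest uncalled point is Ifi202b, at a log2 fold change of 11.37.

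Both figures bear on how the called genes sit among all genes. In the plot of levels by library the called genes separate the groups without overlap, and in the plot of level against fold change most of them lie at low or middle levels. They were called on these same libraries, so their separation largely follows from that choice. Groups of 3 that do not overlap were common: 614 genes (3.57%) had all type 2 libraries above all type 1 libraries and 728 genes (4.23%) had them below.

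Of the called genes, Ptger3, Gpr165 and Adgrg5 encode G protein-coupled receptors. Ptger3 (chromosome 3, 157566892 to 157645888 of GRCm38) encodes EP3, a receptor for prostaglandin E2. It stood at 110, 396 and 315 normalised counts in type 2 microglia, against 0, 0 and 0 in type 1 microglia. Each type 1 library thus lay below its limit of 3 reads. The mean of Ptger3 in type 2 microglia was at least 74.7-fold higher than the mean of these limits. The fitted log2 fold change was 7.91 ± 1.16, adjusted p = 0.00691, and the call held when each of the 6 libraries was left out in turn.

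Gpr165 (chromosome X, 96713441 to 96719388) encodes an orphan receptor. It stood at 267, 95.8 and 175 normalised counts in type 2 microglia, against 0, 0 and 0 in type 1 microglia, at least 49.0-fold higher in type 2 microglia. Its fitted log2 fold change was 7.38 ± 1.19, adjusted p = 0.0197. Leaving out type 2 library 1 (adjusted p = 0.114) or type 1 library 1, 2 or 3 (adjusted p = 0.119, 0.0626 and 0.0555) ended the call. Adgrg5 (chromosome 8, 94923694 to 94943280), an adhesion receptor, went the other way. It fell to 90.8, 48.5 and 201 normalised counts in type 2 microglia, against 1800, 2431 and 1349 in type 1 microglia (log2 fold change -4.22 ± 0.56, adjusted p = 0.00423), and kept its call without any one of the 6 libraries. The same gene stood at 1802 in the type 2 MDM library and at 4873 and 14762 in the type 1 MDM libraries, above the microglia of the same tumour type.

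Other genes of the prostaglandin and leukotriene pathway did not pass the test. Of 21 tested members of that list, Ptger3 was the only one called, where 0.0581% of all tested genes were. Of the members, 13 were fitted above 0 (45.5% of all tested genes) and 7 below (52.6%). The median log2 fold change was 0.11 (0.24 without type 1 library 2 and 0 without type 2 library 2), against -0.03 over all tested genes. Ptger2, which encodes another prostaglandin E2 receptor, EP2, stood at 0, 64.6 and 112 normalised counts in type 2 microglia, against 155, 202 and 121 in type 1 microglia (-3.01 ± 1.14, adjusted p = 0.562). The leukotriene receptor gene Cysltr1 stood at 1682, 2584 and 2026 in type 2 microglia, against 1214, 1026 and 1133 in type 1 microglia (0.88 ± 0.35, adjusted p = 0.596). Hpgd, whose enzyme inactivates prostaglandins, stood at 5606, 8023 and 10054 in type 2 microglia, against 4645, 1754 and 4615 in type 1 microglia (1.20 ± 0.55, adjusted p = 0.728). The groups did not overlap for any of these 3 genes, with Ptger2 low and Cysltr1 and Hpgd high in type 2 microglia, but their differences did not pass the test. Of the 21 members, 4 were higher without overlap (3.57% of all tested genes) and 1 was lower (4.23%). The 3 genes were named for their small p, a choice that favours groups without overlap.

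Antigen presentation genes supplied 1 called gene and the gene nearest to the threshold on the lower side. MHC class II genes encode the paired alpha and beta chains that hold peptide, together with the invariant chain (Cd74), the loading factors of the DM and DO pairs, and Ciita, which switches the set on. Upstream of the genes of the alpha and beta chains lies a conserved module that ends in a Y box, an inverted CCAAT motif bound by NF-Y. The motif CTGATTGG, searched with its reverse complement CCAATCAG over the 250 bases before each start site, was present in 4 of 8 class II genes with a RefSeq window (of 11 listed) and in 1258 of 32851 windows in all (3.83%). The stretches of 150 bases before the start sites of H2-Aa (an A alpha chain), H2-Eb1 (an E beta chain) and H2-Eb2 (a further E beta chain gene) are shown because these are the motif-bearing members with the largest fitted differences, from RefSeq GRCm38.p6, 5′ to 3′ on the gene's own strand, with the motif in capitals.
H2-Aa, chr17:34287824-34287973, minus strand: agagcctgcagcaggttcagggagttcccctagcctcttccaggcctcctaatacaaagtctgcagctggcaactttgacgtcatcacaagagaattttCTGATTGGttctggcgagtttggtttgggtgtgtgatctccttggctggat
H2-Eb1, chr17:34305717-34305866, plus strand: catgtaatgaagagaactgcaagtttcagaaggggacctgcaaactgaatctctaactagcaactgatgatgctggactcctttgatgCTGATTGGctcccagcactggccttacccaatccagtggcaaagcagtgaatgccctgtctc
H2-Eb2, chr17:34325525-34325674, plus strand: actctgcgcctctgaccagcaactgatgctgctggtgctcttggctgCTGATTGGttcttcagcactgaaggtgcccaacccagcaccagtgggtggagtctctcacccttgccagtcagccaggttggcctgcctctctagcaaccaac
The motif began 51, 62 and 103 bases before the start sites of H2-Aa, H2-Eb1 and H2-Eb2. The search took exact matches only. Within 150 bases H2-DMb1, H2-DMb2 and H2-Ob held all of the motif but its first base, and H2-DMa did not. A match of letters is a description and no measure of binding.

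H2-Ea (chromosome 17, 34341959 to 34344645) encodes the E alpha chain and is annotated as a pseudogene in the mouse reference, since mice of the H2-b haplotype do not transcribe it while mice of some other haplotypes do. It stood at 136, 115 and 12 normalised counts in type 2 microglia, against 0, 0 and 0 in type 1 microglia, at least 24-fold higher in type 2 microglia. All type 2 libraries lay above the limit of 3 reads and no type 1 library had a read. The fitted log2 fold change was 5.89 ± 0.96, adjusted p = 0.0197. Leaving out type 2 library 1 or 2 (adjusted p = 0.132 and 0.0828) or type 1 library 1, 2 or 3 (adjusted p = 0.119, 0.0626 and 0.0563) ended the call. The MDM of spontaneous tumours showed the same split, with 3294 normalised counts (3073 reads) in the type 2 library against 1.63 and 0 (2 and 0 reads) in the type 1 libraries.

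Ifi202b, a further gene known to be expressed in some inbred mouse strains and not in others, was picked out after its values were seen. This interferon-inducible gene on chromosome 1 stood at 3468, 5425 and 3153 normalised counts in type 2 microglia, against 2.23, 0 and 0 in type 1 microglia. It also stood at 2779 in the type 2 MDM library, against 0 and 1.3 in the type 1 MDM libraries. The spontaneous libraries thus split completely, yet the difference did not pass the test (11.37 ± 3.17, adjusted p = 0.341). In transplanted tumours the gene was present in some libraries of each type and absent from others, at 1917, 0 and 0 in type 2 microglia and at 0, 0 and 631 in type 1 microglia, and the spread of all 21 libraries enters the fit. Since the labels name no strain, strain and tumour type cannot be told apart for H2-Ea, Ifi202b or any other gene of this comparison.

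H2-Eb2 stood at 0, 0 and 0 normalised counts in type 2 microglia, against 69.2, 65.4 and 75.8 in type 1 microglia. Type 1 libraries were close to one another. H2-Eb2 was at least 21.2-fold lower in type 2 microglia, from the type 1 mean against the mean limit of 3 reads in type 2 libraries. The fitted log2 fold change of -6.15 ± 1.13 narrowly missed the threshold, adjusted p = 0.0514. H2-Eb2 stood at 82.5 in the type 2 MDM library and at 159 and 80.7 in the type 1 MDM libraries.

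The class II list, which does not hold the called H2-Ea, lay below 0. All 11 tested members had a fitted value below 0 in type 2 microglia, where 52.6% of all tested genes did, 7 of 11 were lower at an unadjusted p under 0.05 (3.83% of all tested genes) and 5 of 11 were lower without overlap (4.23%), but 0 were called. H2-Ea, a class II gene outside the list, went the other way. The median log2 fold change of the list was -1.47, and -1.14 without type 1 library 2, where 11 of 11 stayed below 0. The median was -1.01 without type 2 library 3. The summed levels of the list overlapped between the groups. They were 93535, 142267 and 44003 normalised counts in type 2 microglia and 131092, 474967 and 178223 in type 1 microglia. H2-Eb1 stood at 3493, 8430 and 929 normalised counts in type 2 microglia, against 9219, 43780 and 11474 in type 1 microglia (-2.47 ± 0.73, adjusted p = 0.361). H2-DMa, which encodes a chain of the peptide-loading factor, stood at 9817, 7680 and 6221 in type 2 microglia, against 17841, 11046 and 27062 in type 1 microglia (-1.17 ± 0.34, adjusted p = 0.355). Ciita stood at 25.9, 18.5 and 60.7 in type 2 microglia, against 162, 365 and 54.8 in type 1 microglia (-2.23 ± 0.71, adjusted p = 0.426). H2-Eb1 and H2-DMa did not overlap between the groups, while Ciita did, through type 2 library 3 and type 1 library 3. H2-Ab1, the A beta chain gene, overlapped too, at 12691, 21386 and 4599 in type 2 microglia, against 20035, 75222 and 25226 in type 1 microglia (-1.64 ± 0.67, adjusted p = 0.62). Type 1 library 2 had the highest counts of H2-Ab1, H2-Eb1 and Ciita and of the summed monocyte-derived macrophage list, 318622 normalised counts against 100587 to 201372 in type 2 microglia and 145902 and 198595 in the other type 1 libraries. The part of those cells, or of strain, in the class II values was not tested. MHC class I genes were nearer to 0, with a median of -0.32 and 0 called. Of these, 15 of 15 were below 0 (52.6% of all tested genes). Without type 1 library 2 the median was -0.32 with 14 of 15 below 0 (50.9% of all tested genes). Without type 2 library 3 the median was -0.20.

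**Figure D3:**
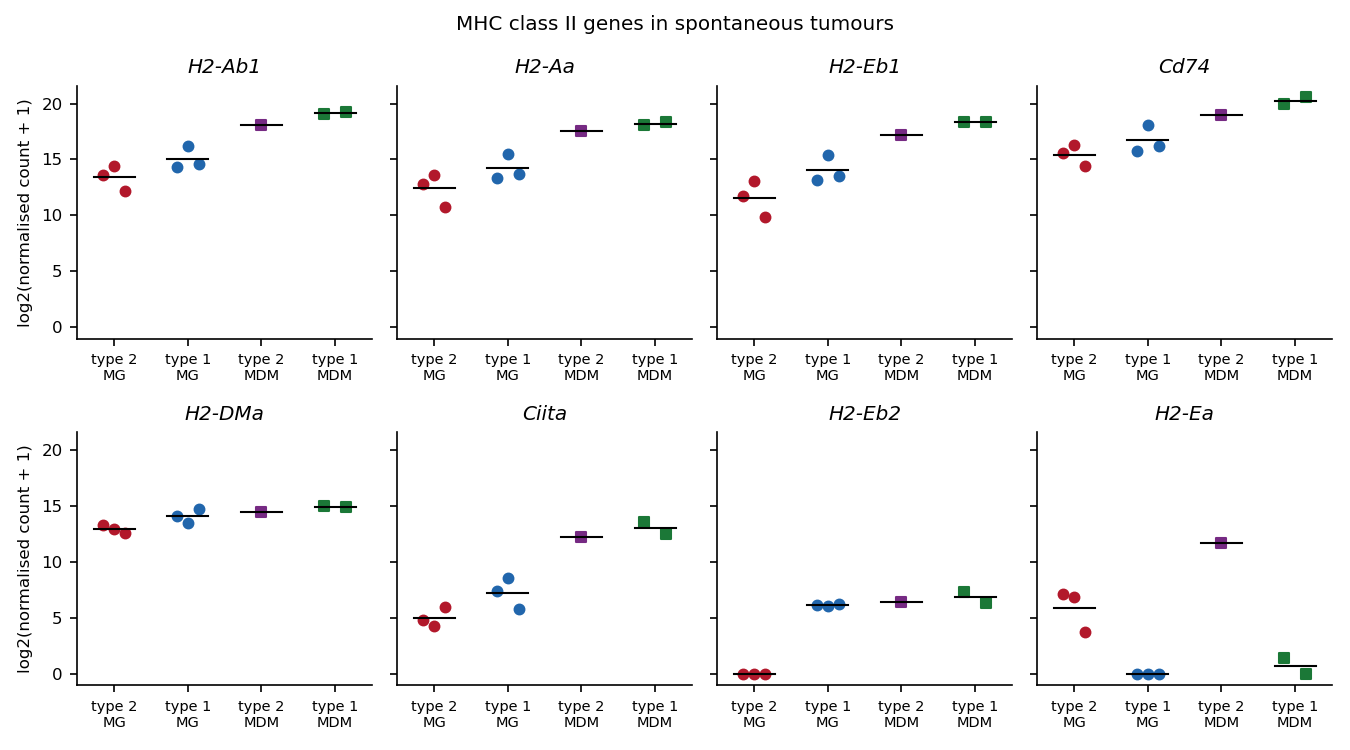
Levels of 8 class II genes as log2(normalised count + 1) in microglia (MG, circles) and monocyte-derived macrophages (MDM, squares) of type 2 and type 1 spontaneous tumours. Each point is 1 library and the bar is the group mean; the type 2 MDM group is 1 library. H2-Eb2 is at 0 in the 3 type 2 microglia libraries and H2-Ea is at 0 in the 3 type 1 microglia libraries.

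The plot of class II genes sets H2-Eb2 and H2-Ea, which split completely in microglia, beside genes of the same family that overlap or nearly overlap. It also shows MDM above microglia in H2-Ab1, H2-Aa, H2-Eb1, Cd74 and Ciita.

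Among genes of metabolism and transport, Gdpd3 had the lowest adjusted p of the comparison. Gdpd3 (chromosome 7, 126766334 to 126775649) encodes a lysophospholipase D, which makes lysophosphatidic acid. It fell to 135, 110 and 83 normalised counts in type 2 microglia, against 1882, 1615 and 5600 in type 1 microglia (-4.57 ± 0.50, adjusted p = 0.000463). The call held without any one library. The type 1 spontaneous libraries were the high ones in the whole series: Gdpd3 stood at 271 in the type 2 MDM library and at 2125 and 2970 in the type 1 MDM libraries of spontaneous tumours, and at 62.5 to 134 in the microglia of transplanted tumours. Gm9967 overlaps Gdpd3 on the opposite strand, and the strand of the counted reads is not given, so their reads cannot be told apart.

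Gnpda1 (chromosome 18, 38327535 to 38339003) encodes glucosamine phosphate deaminase, which returns amino sugar to glycolysis. It was the called gene with the highest level, at 5613, 3774 and 2519 normalised counts in type 2 microglia, against 842, 720 and 769 in type 1 microglia. The log2 fold change was 2.28 ± 0.33, adjusted p = 0.0066, with every type 2 library above every type 1 library and the call kept without any one of the 6. Transplanted tumours had 4155, 2983 and 5909 in type 2 microglia and 6666, 6889 and 4374 in type 1 microglia, so that the type 1 spontaneous libraries stood lowest of the 4 microglia groups.

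Atp6v0e2 (chromosome 6, 48537615 to 48541801) encodes a small subunit of the membrane sector of the vacuolar proton pump, which acidifies lysosomes. It fell to 2.59, 24.2 and 70.1 normalised counts in type 2 microglia, against 681, 530 and 701 in type 1 microglia (-5.09 ± 0.70, adjusted p = 0.00523). Here the type 2 spontaneous libraries were the low ones: transplanted tumours had 607, 633 and 738 in type 2 microglia and 1279, 985 and 689 in type 1 microglia. Slc29a4 (chromosome 5, 142692512 to 142722490), the plasma membrane monoamine transporter gene, is below the level set for named genes and is given because it was called. It stood at 0, 0 and 0 in type 2 microglia, against 22.3, 17.8 and 11.3 in type 1 microglia, at least 5.18-fold lower (-4.13 ± 0.74, adjusted p = 0.0461), and leaving out any one of the 6 libraries ended the call (adjusted p = 0.0585 to 0.154).

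Mycl (chromosome 4, 122995652 to 123002485) encodes L-Myc, a transcription factor of the MYC family. It rose to 195, 323 and 605 normalised counts in type 2 microglia, against 29.0, 29.9 and 22.6 in type 1 microglia (3.59 ± 0.61, adjusted p = 0.0305). MDM held more of it, 927 in the type 2 library and 1699 and 1232 in the type 1 libraries. The call was kept only without type 2 library 1; leaving out type 2 library 2 or 3 (adjusted p = 0.0777 and 0.0877) or type 1 library 1, 2 or 3 (adjusted p = 0.119, 0.0631 and 0.0971) ended it.

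Gbp10 (chromosome 5, 105215699 to 105239533) encodes a guanylate-binding protein, a GTPase induced by interferon gamma. It stood at 89.5, 95.8 and 82.1 normalised counts in type 2 microglia, against 0, 3.74 and 0 in type 1 microglia (5.74 ± 0.99, adjusted p = 0.0323). Gbp10 has the near-identical neighbour Gbp6, between which reads can be split, so its value is uncertain. Gbp6 itself stood at 236, 178 and 144 in type 2 microglia, against 250, 1000 and 290 in type 1 microglia (-1.19 ± 0.51, adjusted p = 0.675), with the groups apart in the other direction. Leaving out type 2 library 1, 2 or 3 (adjusted p = 0.132, 0.0941 and 0.0658) or type 1 library 1 or 3 (adjusted p = 0.126 and 0.108) ended the call of Gbp10.

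The genes next in order of p, among those at the level set for named genes, did not pass the test. On the higher side these were Frem2, a matrix protein gene at 165, 65.8 and 13.7 normalised counts in type 2 microglia against 0, 0 and 0 in type 1 microglia, at least 22.2-fold higher (5.77 ± 1.08, adjusted p = 0.0634), the zinc finger gene Zkscan5 (2.29 ± 0.47, adjusted p = 0.0995), the mitochondrial protein gene Mgarp (4.85 ± 1.07, adjusted p = 0.145) and Plppr4 (4.91 ± 1.10, adjusted p = 0.152). On the lower side, Fxyd5, a regulator of the sodium pump, stood at 1827, 3269 and 1859 in type 2 microglia, against 8962, 6785 and 4468 in type 1 microglia (-1.54 ± 0.30, adjusted p = 0.0771). Asns, the asparagine synthetase gene and a known target of the amino acid stress response, stood at 211, 199 and 91.5 in type 2 microglia, against 2129, 890 and 941 in type 1 microglia (-2.94 ± 0.60, adjusted p = 0.0965). For Fxyd5 and Asns all type 1 libraries were above all type 2 libraries, as for 4.23% of all tested genes. The secreted factor gene Angptl2 (-4.50 ± 0.89, adjusted p = 0.0771), the neural proteoglycan gene Cspg5 (-5.46 ± 1.08, adjusted p = 0.0771), the neural transcription factor gene Pou3f4, without reads in type 2 microglia and at least 22.5-fold lower there (-5.10 ± 1.19, adjusted p = 0.185) and the receptor gene Gpr171 (-4.56 ± 1.07, adjusted p = 0.185) also lay lower. Gpr171 was highest in type 1 library 2, where it stood at 649 against 61.4 and 21 in the other type 1 libraries and 14.3, 3.46 and 0 in type 2 microglia.

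Markers of microglial identity did not pass the test. Of 27 tested homeostatic genes 0 were called. Of these, 26 were fitted above 0 (45.5% of all tested genes), with a median log2 fold change of 0.46. Without type 1 library 2, 21 were fitted above 0 (46.5% of all tested genes), with a median of 0.32. P2ry12 stood at 95017, 101192 and 82449 normalised counts in type 2 microglia, against 48309, 12893 and 51666 in type 1 microglia (1.54 ± 0.90, adjusted p = 0.851). Rtn4rl1, a Nogo receptor family gene, stood at 2582, 2943 and 3050 in type 2 microglia, against 1495, 687 and 2004 in type 1 microglia (1.16 ± 0.42, adjusted p = 0.516). Both genes had all type 2 libraries above all type 1 libraries. Of the 27 genes, 5 were higher without overlap (3.57% of all tested genes) and 1 was lower (4.23%). Sall1, the transcription factor of microglial identity, was close to 0 (0.08 ± 0.80), as were the fractalkine receptor gene Cx3cr1 (0.15 ± 0.35) and the leukocyte gene Ptprc (0.22 ± 0.30), with adjusted p = 1, 1 and 0.994. The growth factor receptor gene Csf1r (0.49 ± 0.47, adjusted p = 0.971) and the integrin gene Itgam (0.24 ± 0.49, adjusted p = 1) did not pass either. Disease-associated microglia genes, such as the lipid carrier Apoe (0.05 ± 0.68, adjusted p = 1) and the matrix protein Spp1 (0.41 ± 0.80, adjusted p = 1), had 0 of 27 called and a median of -0.07, which was -0.22 without type 1 library 2 but 0.06 without type 1 library 3 and 0.18 without type 2 library 3.

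Genes of incoming macrophages, interferon response and inflammation had medians below 0, nearer to 0 or above it without type 1 library 2. The monocyte-derived macrophage list had a median log2 fold change of -1.40. Of its genes, 11 of 32 were lower at an unadjusted p under 0.05 (3.83% of all tested genes). Without type 1 library 2 the median was -0.67 and 3 of 32 were lower in this way, where 636 of 17216 tested genes were. With or without this library 0 were called. The median was -2.1 without type 1 library 3. Ccr2, the chemokine receptor of monocytes, stood at 106, 265 and 127 normalised counts in type 2 microglia, against 695, 2691 and 37.1 in type 1 microglia (-1.43 ± 1.06, adjusted p = 0.912), and its log2 fold change was -0.08 without type 1 library 2. Itga4, an integrin of blood-derived cells, stood at 36.3, 66.9 and 57.3 in type 2 microglia, against 113, 437 and 53.2 in type 1 microglia (-1.40 ± 0.69, adjusted p = 0.756). Type I interferon genes had 29 of 29 fitted values below 0 (52.6% of all tested genes). Their median was -0.56, and -1.01 without type 1 library 1. Without type 1 library 2, 16 of 29 were below 0 (50.9% of all tested genes) and the median was -0.03. Inflammatory cytokine and NF-kB genes had a median of -0.51 with that library and 0.12 without it, and of -0.94 without type 1 library 1 and -0.20 without type 2 library 3. Tnf, the central inflammatory cytokine gene, stood at 1039, 1385 and 640 in type 2 microglia, against 1720, 7044 and 3026 in type 1 microglia (-1.77 ± 0.59, adjusted p = 0.451). Cxcl9, a chemokine gene induced by interferon gamma, stood at 84.3, 192 and 64.1 in type 2 microglia, against 247, 1355 and 564 in type 1 microglia (-2.49 ± 0.73, adjusted p = 0.361). Tnf and Cxcl9 were lower in each type 2 library than in each type 1 library without passing the test. Of 23 inflammatory cytokine and NF-kB genes, 3 were lower without overlap (4.23% of all tested genes) and 0 were higher (3.57%). Of 23 interferon gamma genes, 2 were lower and 1 was higher without overlap. The interferon gamma list, which holds Gbp10 and Cxcl9, had a median of -0.25, -0.04 without type 1 library 2 and -0.71 without type 1 library 1. Of its genes, 1 of 23 was called (0.0581% of all tested genes).

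Glycolysis and hypoxia genes had medians above 0 with and without type 1 library 2. Their median was 0.35 with 21 of 26 above 0, where 45.5% of all tested genes were, and 0.41 with 23 of 26 without that library, where 46.5% were, and 0 were called. Leaving out type 1 library 3 or type 2 library 2 or 3 gave medians of 0.17, 0.2 and 0.6. Egln3, an oxygen sensor gene induced by hypoxia, stood at 1204, 1506 and 695 normalised counts in type 2 microglia, against 544, 370 and 187 in type 1 microglia (1.69 ± 0.54, adjusted p = 0.426). Bnip3, a mitophagy receptor gene induced by hypoxia, stood at 4122, 5412 and 2310 in type 2 microglia, against 2064, 1136 and 1460 in type 1 microglia (1.30 ± 0.42, adjusted p = 0.426). In both, the lowest type 2 library was above the highest type 1 library. Of the 26 glycolysis and hypoxia genes, 2 were higher without overlap (3.57% of all tested genes) and 0 were lower (4.23%). Oxidative phosphorylation genes had a median of -0.16, and -0.54 without type 1 library 2, with 0 of 30 called; the median was 0.26 without type 1 library 3 and 0.21 without type 2 library 3, so its direction turned with single libraries. Mmp12, the macrophage elastase gene, stood at 1653, 1740 and 1008 in type 2 microglia, against 91.5, 480 and 17.7 in type 1 microglia (3.92 ± 1.03, adjusted p = 0.294). The matrix list that holds it had a median of -0.40, 0.08 without type 1 library 2 and -0.66 without type 1 library 3.

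Proliferation genes were high in single libraries of both tumour types. Mki67, a marker of dividing cells, stood at 214, 287 and 1155 normalised counts in type 2 microglia, against 1421, 58.9 and 96.7 in type 1 microglia (1.04 ± 1.04, adjusted p = 0.979). Type 2 library 3 and type 1 library 1 were the high ones, and the median of 32 proliferation genes was 0.34. It was -0.29 without type 1 library 2, 1.32 without type 1 library 1 and -0.13 without type 2 library 3, so its direction too turned with single libraries. Checkpoint and alternative activation genes showed no call either: Cd274, which encodes PD-L1, was at 0.16 ± 0.65 (adjusted p = 1), Arg1, the arginase gene, at 0.88 ± 1.37 (adjusted p = 0.997), and Mrc1, the mannose receptor gene, at 0.99 ± 0.69 (adjusted p = 0.895). Vsir, which encodes the checkpoint protein VISTA, stood at 63567, 57052 and 55518 in type 2 microglia, against 35904, 26432 and 46087 in type 1 microglia (0.73 ± 0.27, adjusted p = 0.548).

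**Figure D4:**
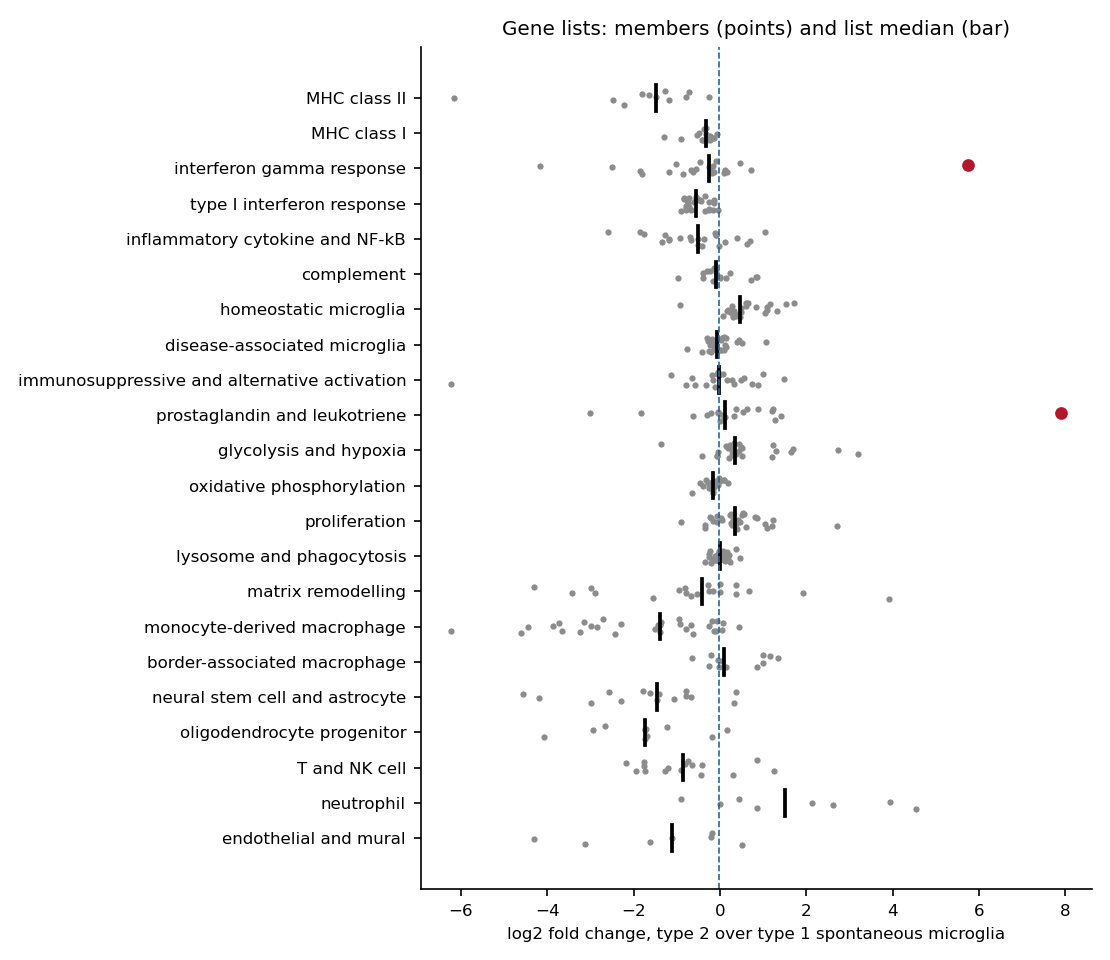
Log2 fold change of type 2 over type 1 spontaneous microglia for the tested members of 22 gene lists. Each point is 1 gene, red points are called genes (Gbp10 and Ptger3), black bars are list medians and the dashed line is the median of all tested genes, -0.03. The class II, monocyte-derived macrophage, neural stem cell and oligodendrocyte progenitor medians lie below the line, between -1.40 and -1.73.

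In the plot of gene lists the called genes are Gbp10 and Ptger3, each the only called member of its list. The other called genes are in none of the plotted lists. The absence of a call does not show that a list is unchanged. Several of the lists farthest from the line are markers of other cells. Neural stem cell and astrocyte genes had a median of -1.45 (-1.99 without type 1 library 2). Of these, 13 of 15 were below 0 (52.6% of all tested genes). At an unadjusted p under 0.05, 4 were lower (3.83% of all tested genes), and 0 were called. Sox2, a transcription factor of neural stem and glioma cells, stood at 0, 19.6 and 0 normalised counts in type 2 microglia, against 73.7, 63.6 and 54.8 in type 1 microglia (-4.56 ± 1.14, adjusted p = 0.233). Hes5, a Notch target of neural progenitors, stood at 0, 6.93 and 0.855 in type 2 microglia, against 26.8, 43.0 and 70.9 in type 1 microglia (-4.18 ± 1.16, adjusted p = 0.341). Olig2, an oligodendrocyte lineage factor, stood at 0, 0 and 6.84 in type 2 microglia, against 8.93, 4.67 and 62.9 in type 1 microglia (-2.95 ± 1.03, adjusted p = 0.481). Sox2 and Hes5 were above every type 2 library in each type 1 library, at levels far below those of the microglial genes. Of the 15 neural stem cell and astrocyte genes, 3 were lower without overlap (4.23% of all tested genes) and 0 were higher (3.57%). The summed level of this list did not follow, at 8804, 5474 and 6141 normalised counts in type 2 microglia and 5192, 5814 and 6485 in type 1 microglia. The oligodendrocyte progenitor list had a median of -1.73, which was -2.47 without type 1 library 2 and -0.92 without type 1 library 3. Neutrophil genes had a median of 1.5 in the other direction (1.19 without type 1 library 2, 0.4 without type 2 library 2 and 3.15 without type 2 library 1), with summed levels of 114, 1377 and 204 in type 2 microglia and 194, 150 and 54.8 in type 1 microglia, where Mpo and Elane were at 0 in all 6 libraries. T and NK cell genes had a median of -0.86 (-0.99 without type 1 library 2, -0.29 without type 2 library 1 and -1.74 without type 1 library 3), with summed levels of 106 to 297 in type 2 microglia and 332 to 417 in type 1 microglia. The part of these cells in the called genes was not tested.

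The same tumour type contrast in transplanted tumours called other genes. It shares no library with the spontaneous contrast, but both use the same estimate of spread for each gene, so they are not independent. In transplanted tumours the test called 65 of 17216 genes (0.378%), with 5 higher (0.029%) and 60 lower (0.349%), and 0 genes were called in both models. Of the 10 genes called in spontaneous tumours, 8 had the same sign in transplanted tumours, where 53.3% of all tested genes had the same sign. Of these 8, 2 also had an unadjusted p under 0.05 there. Over all tested genes 8.66% had such a p in transplanted tumours, counted with either sign. Ptger3 stood at 12.3, 104 and 63.3 normalised counts in type 2 transplanted microglia, against 53.3, 1.46 and 54.4 in type 1 (1.20, adjusted p = 0.79). Gpr165 stood at 63.9, 577 and 313 in type 2 transplanted microglia, against 154, 70.0 and 160 in type 1 (0.91, adjusted p = 0.855). Both receptors were thus present in each group of transplanted tumours and overlapped there. H2-Ea was at 0 in all 6 transplanted microglia libraries.

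In the other direction, 44 of the 60 genes lower in type 2 transplanted microglia had a fitted value below 0 in spontaneous tumours, where 52.6% of all tested genes did, with a median spontaneous log2 fold change of -1.41, and 21 were lower there at an unadjusted p under 0.05 (3.83% of all tested genes). Of the 5 genes higher in type 2 transplanted microglia, 1 had a fitted value above 0 in spontaneous tumours and 0 were higher there at an unadjusted p under 0.05. The 60 lower genes include the neural genes Sox2, at 0, 0 and 0 in type 2 transplanted microglia against 175, 168 and 67.1 in type 1 (-6.98, adjusted p = 0.00872), Hes5 (-6.96, adjusted p = 0.00912) and Olig2 (-5.33, adjusted p = 0.0291). Angptl2 had nearly the same fold change in transplanted tumours, where it was called (-4.58, adjusted p = 0.0291), and in spontaneous tumours, where it was not (-4.50). Sox2, Hes5 and Angptl2 were lower in type 2 libraries of both models without overlap.

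**Figure D5:**
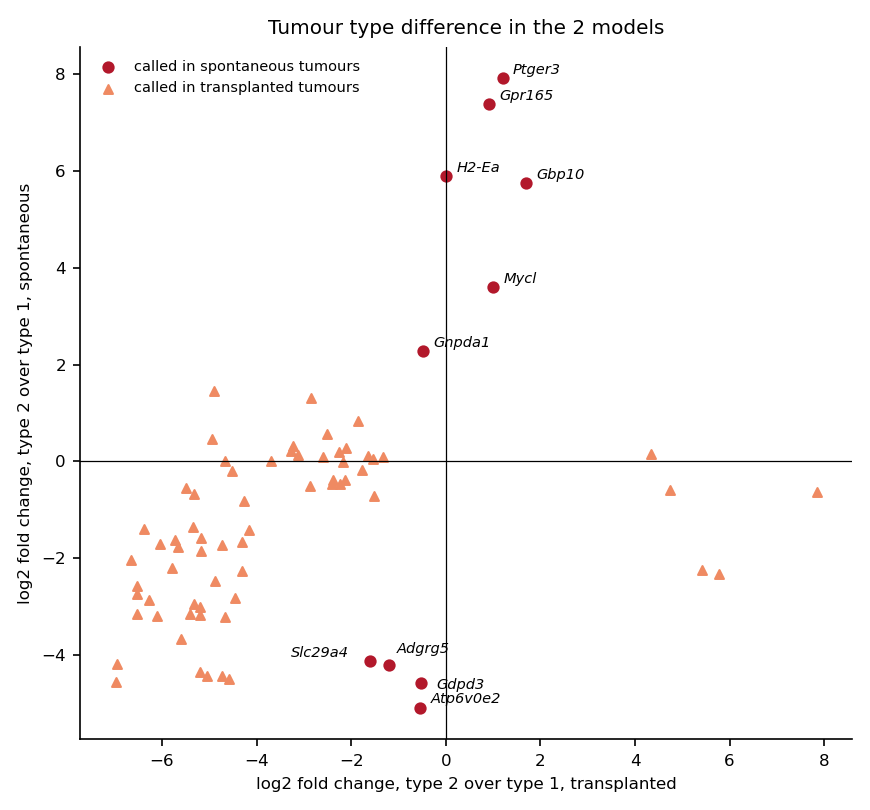
Log2 fold change of type 2 over type 1 microglia in transplanted tumours (horizontal axis) and in spontaneous tumours (vertical axis). Circles are the 10 genes called in spontaneous tumours and triangles the 65 genes called in transplanted tumours. The spontaneous calls lie between -1.60 and 1.70 on the transplanted axis.

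The plot of both models gives the values of 2 sets that were each chosen on their own axis, with no gene in both, so their separation is fixed by that choice. The difference between the contrasts was tested as an interaction. The interaction of tumour type and model called 2 genes (0.0116%), and 0 of the 10 genes called in spontaneous tumours were among them. The nearest of those were Gnpda1 and Gdpd3, with an interaction adjusted p = 0.0614 for each. The difference between the models was therefore not shown for any of the 10 genes. The interaction calls were Wdfy1, which encodes an endosomal adaptor of Toll-like receptor signalling, and Rasgrp1, which encodes an activator of Ras. Wdfy1 stood at 4121, 3671 and 3077 normalised counts in type 2 spontaneous microglia, against 2861, 2903 and 3151 in type 1 spontaneous microglia (0.28 ± 0.24, adjusted p = 0.959). In transplanted tumours it fell to 776, 551 and 509 in type 2 microglia, against 2812, 2425 and 2594 in type 1 microglia (-2.11 ± 0.24, adjusted p = 0.00115). The 3 type 2 transplanted libraries were thus the low ones among the 12 microglia libraries.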

How the data were processed

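Per the labels' protocols, RNA of sorted cells was taken up in TRIzol, purified with a miRNeasy Micro kit and made into libraries by SMART-Seq v4. Per the submitters' processing notes, STAR 2.7.8a, mm10 and DESeq2 were used; the read counter, annotation and strand are not given in the sources used here. The authors deposited log2-like values of 30749 genes with a floor of 4.22. These were inverted in closed form: 100% of values gave whole reads within 1e-06 with 1 size factor per library, so levels are normalised counts. Genes with at least 10 normalised counts in at least 3 libraries were kept. limma 3.58.1 (limma-trend, R 4.3.3) was fitted to log2(normalised count + 1) over 21 libraries in 8 groups, which left 13 residual degrees of freedom, and was tested on simulated data. Coordinates are from GENCODE for GRCm38, and promoter bases from RefSeq GRCm38.p6.

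The members and gene lists were chosen with earlier results of these data known. Named genes are up to 15 called genes each way with a mean of at least 50 normalised counts in the higher group. The next genes by p at that level filled each direction up to 10. Predicted genes, pseudogenes by name, immunoglobulin and T cell receptor segments and sex-linked genes were left out of both. Up to 4 members of a list with the smallest p and fixed markers were also named. Slc29a4, Rasgrp1, Ifi202b, Gt(ROSA)26Sor and markers beside them were given after their values were seen. Lists were described by counts and medians only. Limits of 3 reads cover counting error only, and each fold given as at least was a group mean over the mean limit. Alternatives were other pseudocounts, filters, scalings, weights, subsets of libraries, sex, a replicate block, a block of microglia and MDM libraries that share a number (added after seeing the data), voom on the recovered reads and each library left out. No pair of replicates agreed within sampling noise.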

Additional observations from a re-analysis of the deposited data

Results flagged for a closer look

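The tumour type difference of Wdfy1 differed between spontaneous and transplanted microglia by the interaction test. The difference of the log2 fold changes was 2.39 ± 0.34, adjusted p = 0.0138, and it arose from a fold change of 0.28 in spontaneous and -2.11 in transplanted microglia. The call ended without type 2 spontaneous library 1 (adjusted p = 0.0614) or type 1 spontaneous library 2 (adjusted p = 0.0515).

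For Rasgrp1, named after its values were seen since its level is below that set for named genes, the same difference was -7.65 ± 1.10, adjusted p = 0.0138. Rasgrp1 stood at 19.5, 1.15 and 0 normalised counts in type 2 spontaneous microglia, against 12.3, 12.2 and 25.8 in type 1 spontaneous microglia. It stood at 24.6, 47.2 and 61.0 in type 2 transplanted microglia, against 0, 0 and 0 in type 1 transplanted microglia. The call ended without type 1 spontaneous library 2 (adjusted p = 0.0515), with the 12 microglia libraries (adjusted p = 0.173) and with voom (adjusted p = 0.0798). It also ended with a pseudocount of 8, where the difference was -3.57 (adjusted p = 0.104), and on the deposited values, where it was -2.71 (adjusted p = 0.0978). MDM of spontaneous tumours held 645 in type 2 and 853 and 704 in type 1.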

How the results depend on the processing

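The number of genes called between type 2 and type 1 spontaneous microglia, 10 in the fit as reported, changed with the setting. It was 124 with array weights (all 10 shared), 6 on the deposited values, 2 with the 12 microglia libraries, 0 with the 6 compared libraries and 1 with voom on the recovered reads. The array weights were uneven, at 5.143, 0.482 and 0.28 for type 1 libraries 1, 2 and 3. For type 2 libraries 1, 2 and 3 they were 0.857, 1.194 and 0.445. The type 1 side of the weighted fit thus rested mostly on library 1. Leaving out 1 library gave 5 to 20 calls, the lowest without type 1 library 1 and the highest without type 2 library 3. With a replicate block on the 6 libraries 0 genes were called and 530 had an unadjusted p under 0.05; libraries of the same number deviated with correlations of -0.08, 0 and -0.22, so the numbers were not taken to pair them. With microglia and MDM libraries of 1 number as a block over all 21 libraries, added after seeing the data, the counts were 10, 65 and 2 in the spontaneous, transplanted and interaction tests. In transplanted tumours the 65 calls became 415 with array weights, 41 at the same total per library and 28 with voom. The 2 interaction calls became 182 with array weights, 1 with the 12 microglia libraries, 1 with a pseudocount of 8 and 1 with voom, and 0 to 12 when 1 spontaneous library was left out: 0 without type 1 library 2, 6 without type 1 library 3, and 1, 8 and 12 without type 2 library 1, 2 and 3. The causes were not tested. For 160 named genes, 2926 of 3029 values under 19 settings kept their side of the threshold, 76 lost a call and 27 gained one. Only the 10 genes called in the fit as reported could lose a call. The share of values that kept their side therefore says little about how stable the calls were. No called value changed sign, while 59 uncalled values took the opposite sign. With 3 libraries a group, genes of low level or wide spread could be missed.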

Other observations

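Gt(ROSA)26Sor, the non-coding transcript of a locus often used for inserting transgenes in mice, was picked out after its values were seen. It stood at 5.19, 507 and 0 normalised counts in type 2 spontaneous microglia, against 974, 412 and 661 in type 1 spontaneous microglia (log2 fold change -5.46 ± 1.35, adjusted p = 0.222 by limma-trend). The type 2 spontaneous MDM library, which carries the number 3 as does the microglia library at 0, stood at 1.07, against 470 and 518 in the type 1 spontaneous MDM libraries. In the 6 transplanted microglia libraries the transcript stood at 293, 166 and 248 in type 2 and at 220, 181 and 356 in type 1.

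Ifi202b showed a like pattern across cell types of the same label number. In transplanted tumours it stood at 1917 in type 2 microglia library 1 and 2056 in type 2 MDM library 1, and at 0 in type 2 microglia library 3 and 0 in type 2 MDM library 3. In type 1 transplanted tumours it stood at 631 in microglia library 4 and 673 in MDM library 4, and at 0 in microglia libraries 1 and 2 and in MDM libraries 1, 2 and 3. The labels do not say whether a shared number marks a shared animal.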
